A study of Homo sapiens with 4 samples.

Results

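The 31 genes described here make cholesterol, take it into the cell, move it on and out, or control its synthesis through the SREBP transcription factors. They were chosen by name and by a mean of at least 1 FPKM (fragments per kilobase of a gene's transcript at a common library depth) over the 4 libraries, and all 31 named symbols met that minimum, out of 12663 genes that did so among 26255 listed symbols. Nearest to the minimum were ABCA1 at a mean of 1.15 FPKM and MYLIP at 4.73 FPKM. The libraries came from A549, an established human lung adenocarcinoma line whose genotype is labelled WT, cultured for 5 days in medium with 5% fetal bovine serum. The groups were 3D hypoxia, 3D normoxia, 2D hypoxia and 2D normoxia, with 1 library each, where 3D means growth on solidified Matrigel, 2D growth on a culture dish and hypoxia 1% oxygen. The study asked what sets apart the micropapillary-like structures that form in 3D under hypoxia.

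Cholesterol is built from acetyl-CoA through mevalonate and isoprenyl diphosphates to squalene, which is closed into a ring and trimmed to cholesterol, and several of the trimming steps use molecular oxygen. When membranes of the endoplasmic reticulum are low in cholesterol, SCAP carries SREBP-2 to the Golgi for release, and SREBP-2 then switches on nearly all enzymes of the route. With enough sterol, INSIG proteins hold SCAP back, and oxysterols switch on export genes through the nuclear receptor LXR. In lung epithelium sterol synthesis feeds membranes and the lipid of surfactant.

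Depth, inferred from the commonest low value in each library, was about 11500000 fragments in 3D hypoxia, 11800000 in 3D normoxia, 38900000 in 2D hypoxia and 24400000 in 2D normoxia. At these depths the members rested on 77.4 to 11960 fragments each. Since each group is a single library, differences between libraries carry no replicate error, and a counting error here stands for fragment sampling alone. All 6 epithelial markers passed the minimum, with KRT8 at 1894 to 3731 FPKM and EPCAM low at 1.43 to 2.73 FPKM. The leukocyte marker PTPRC was at or below 0.0168 FPKM, the 4 endothelial markers were below 1 FPKM, and the summed fibroblast list was at 0.756 FPKM in 3D hypoxia, 0.87 in 3D normoxia, 14.1 in 2D hypoxia and 2.7 in 2D normoxia, mostly COL1A1. The summed blood list was lowest in 2D hypoxia (16.5 FPKM, against 31.2 to 43.0 in the others), through CD68 and CD14, and all 5 steroidogenic and hepatocyte markers averaged below 1 FPKM. The part of these markers in the results below was not tested.

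Hypoxia went with more sterol transcripts on Matrigel and fewer on plastic. In 3D, 22 of the 31 members stood above 0 in the log2 ratio of hypoxia to normoxia, where 47.7% of all genes did, and their median was 0.19 against -0.02 over all genes. In 2D, 23 of the 31 stood below 0, where 50.3% of all genes did, with a median of -0.23 against -0.0019 over all genes. Scaling mattered to these counts: with each library rescaled to an FPKM sum of 1000000, which lowered the median of all genes by 0.12 in 3D and 0.13 in 2D, 17 members stood above 0 in 3D (33.8% of all genes) and 27 below 0 in 2D (65.2% of all genes). Ratios were taken on log2(FPKM + 1), which understates differences of low genes. Values are shares of a library, so less RNA per cell and fewer cells of a kind cannot be told apart.

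The response to hypoxia was more positive in 3D than in 2D for 28 of the 31 members, where 48.2% of all genes had such a difference. Their median over all 31 was 0.47 log2 units, against -0.01 over all genes, and it was 0.48 both on that rescaling and after centring on the median gene. At 1 log2 unit or more were ABCG1 and HSD17B7 (1.87% of all genes), and 0 members lay at -1 or below (0.861% of all genes). In either direction, the difference was larger than 1.96 counting errors for 28 members. The share of all genes beyond that mark was not counted, so this count does not set the members apart. PMVK (-0.27), LBR (-0.23) and NPC2 (-0.19) were the members with a difference below 0. No test of the difference exists, since a fit with it leaves no residual degree of freedom.

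**Figure D1:**
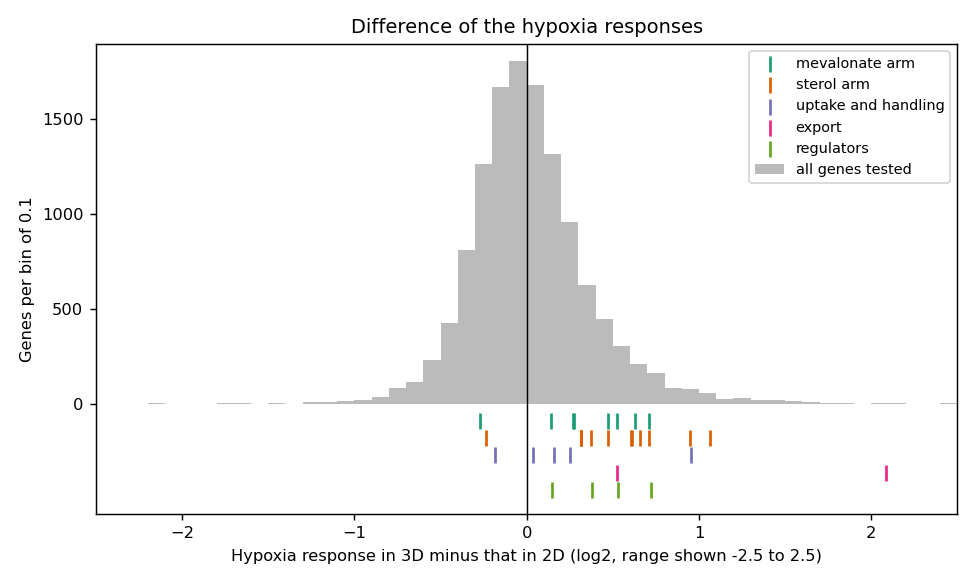
Histogram of the hypoxia response in 3D minus that in 2D (log2, x axis) over 12663 genes (y axis, genes per bin of 0.1), with 1 tick per sterol gene in a row for each arm. Of 31 ticks, 28 lie right of 0, and ABCG1 lies farthest right at 2.08 (1 library per group, no test).

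Another way to see the pattern is to ask which library held each member's highest value. It was 3D hypoxia for 14 members (23.6% of all genes), 3D normoxia for 4 (24.05%), 2D hypoxia for 0 (25.9%) and 2D normoxia for 13 (26.4%). The lowest value lay in 2D hypoxia for 12 members (23.5% of all genes) and in 3D normoxia for 11 (25.1%). After rescaling to a sum of 1000000 the highest value lay in 3D hypoxia for 7 members (12.2% of all genes), in 2D hypoxia for 1 (22.4%) and in 2D normoxia for 19 (44.7%), a shift that all genes shared. Opposite signs, higher with hypoxia in 3D and lower with hypoxia in 2D, were found for 15 of 31 members (48.4%) and for 13.5% of all genes. Signs were counted whatever their counting error and were not recounted after rescaling. Of the 15, MVD, IDI1, FDFT1, EBP and HSD17B7 lay within 1.96 counting errors of 0 in 3D, and SC5D and ABCA1 did in 2D.

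**Figure D2:**
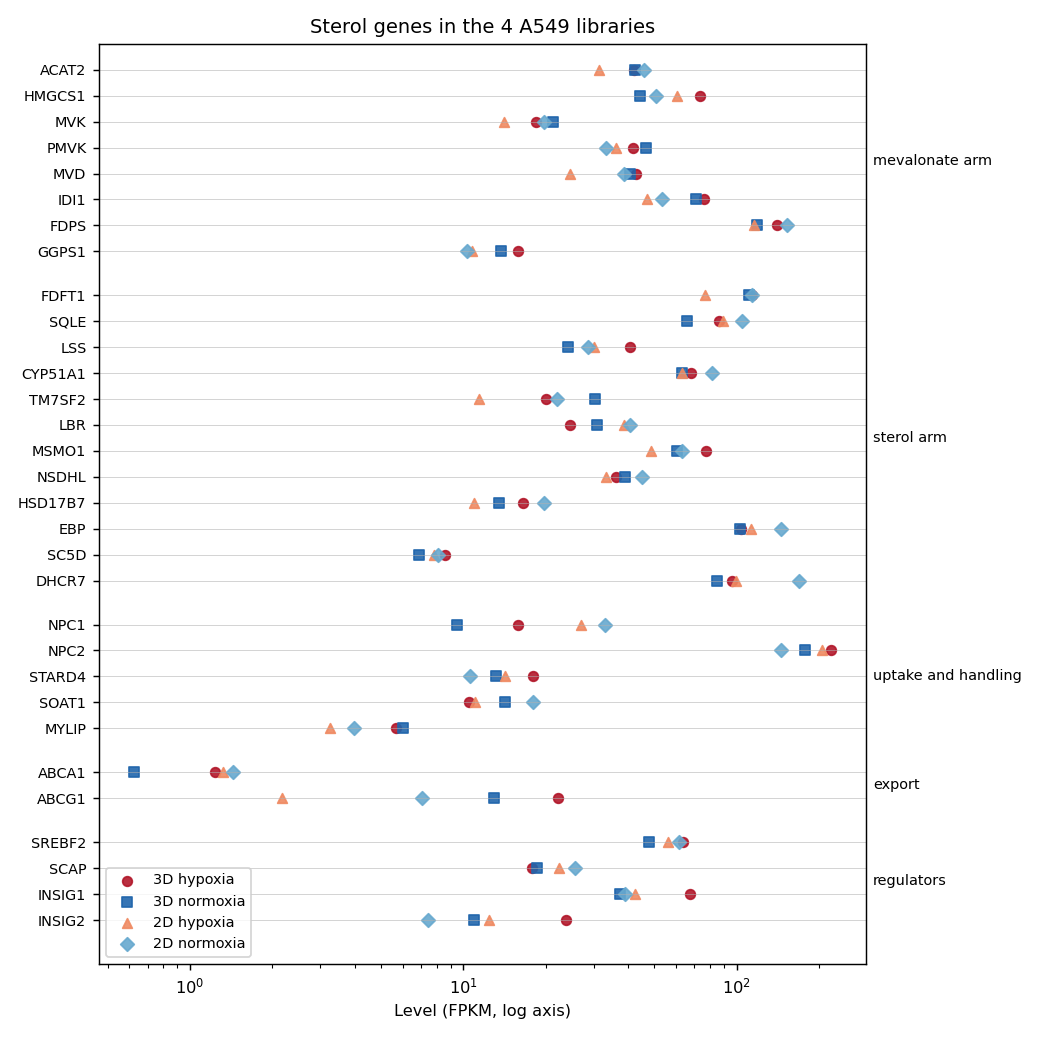
Level of each of the 31 genes (FPKM, log x axis) in the 4 libraries, 1 symbol per library, grouped by arm. The 2D hypoxia triangles are never the rightmost symbol of a row, and ABCG1 and NPC1 have the widest spreads, 10.3-fold and 3.46-fold.

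The mevalonate arm, 8 genes that run to the isoprenyl diphosphates, had a median hypoxia response of 0.08 log2 units in 3D, which turned to -0.05 on rescaling to a sum of 1000000, and of -0.28 in 2D. HMGCS1, which makes HMG-CoA from acetoacetyl-CoA, stood at 73.7 FPKM in 3D hypoxia, 44.2 in 3D normoxia, 60.5 in 2D hypoxia and 50.7 in 2D normoxia. It was highest in 3D hypoxia, and its log2 ratios were 0.72 ± 0.04 (counting error) in 3D and 0.25 ± 0.03 in 2D. MVD, which decarboxylates mevalonate diphosphate, was at 42.8 FPKM in 3D hypoxia, 40.9 in 3D normoxia, 24.5 in 2D hypoxia and 38.8 in 2D normoxia. Here 3 libraries were level and 2D hypoxia stood low (log2 ratio -0.64 ± 0.05 in 2D, 0.06 ± 0.07 in 3D).

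The same shape was seen for ACAT2, which makes acetoacetyl-CoA, at 42.1 and 42.3 FPKM in 3D hypoxia and 3D normoxia, and at 31.5 and 45.9 FPKM in 2D hypoxia and 2D normoxia. FDPS, which makes farnesyl diphosphate, was at 139.9 FPKM in 3D hypoxia, 118.2 in 3D normoxia, 115.9 in 2D hypoxia and 152.2 in 2D normoxia, with log2 ratios of 0.24 ± 0.05 in 3D and -0.39 ± 0.03 in 2D. It was thus nearest to its 2D normoxia level in 3D hypoxia. IDI1, the isomerase of the isoprene units, was at 75.7 FPKM in 3D hypoxia and 71.0 in 3D normoxia, above its 47.1 FPKM in 2D hypoxia and 53.4 in 2D normoxia. The kinases MVK and PMVK were both lower with hypoxia in 3D, and MVK, like MVD and ACAT2, was lowest in 2D hypoxia (14.1 FPKM). MVK had ratios of -0.19 ± 0.09 in 3D and -0.46 ± 0.06 in 2D, and PMVK had -0.15 ± 0.08 in 3D and 0.12 ± 0.05 in 2D. GGPS1, which makes geranylgeranyl diphosphate for protein prenylation, was at 15.9 FPKM in 3D hypoxia, 13.7 in 3D normoxia, 10.7 in 2D hypoxia and 10.3 in 2D normoxia, so that both Matrigel libraries lay above both plastic ones.

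Exons of ACAT2, FDPS, GGPS1, IDI1, MVK and NPC2 overlap a gene on the other strand that itself averaged at least 1 FPKM, among them SOD2 (111.9 FPKM in 3D hypoxia, 41.2 in 3D normoxia) over ACAT2. The library kit marks strand, but whether the counting used strand is not stated in the sources at hand, so these values are uncertain. FDPS, CYP51A1 and HSD17B7 also have pseudogene copies that can share reads.

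The sterol arm held 12 genes from squalene to cholesterol. Its median hypoxia response was 0.15 in 3D (0.01 on rescaling to a sum of 1000000) and -0.37 in 2D. Of the 12, 8 were higher with hypoxia in 3D and lower in 2D, against 13.5% of all genes. Among these, EBP, FDFT1 and HSD17B7 lay within 1.96 counting errors of 0 in 3D, and SC5D did in 2D. On that rescaling 6 of 12 stood above 0 in 3D, against 33.8% of all genes. LSS, which closes squalene epoxide into the ring, stood at 40.6 FPKM in 3D hypoxia, 24.2 in 3D normoxia, 30.0 in 2D hypoxia and 28.5 in 2D normoxia. It was high in 3D hypoxia alone, with log2 ratios of 0.72 ± 0.05 in 3D and 0.07 ± 0.03 in 2D. DHCR7, a terminal reductase, was at 95.9 FPKM in 3D hypoxia, 84.6 in 3D normoxia, 99.2 in 2D hypoxia and 169.7 in 2D normoxia. For DHCR7 the library that stood apart was 2D normoxia, and the ratios were 0.18 ± 0.04 in 3D and -0.77 ± 0.02 in 2D.

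HSD17B7, a ketone reductase of the C4 demethylation complex, had the next largest difference of responses after ABCG1, 1.07 ± 0.20 log2 units. Its levels were 16.5 FPKM in 3D hypoxia, 13.5 in 3D normoxia, 10.9 in 2D hypoxia and 19.7 in 2D normoxia. FDFT1, which makes squalene, was at 111.4 to 114.1 FPKM in 3 libraries and at 76.3 FPKM in 2D hypoxia. EBP, an isomerase, was at 103.5 and 102.8 FPKM in 3D hypoxia and 3D normoxia, and at 113.2 and 145.8 FPKM in 2D hypoxia and 2D normoxia. NSDHL, a decarboxylating dehydrogenase, had ratios of -0.11 ± 0.07 in 3D and -0.43 ± 0.04 in 2D, so both cultures pointed down.

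The 4 enzymes of the arm that use molecular oxygen all stood above 0 in 3D and below 0 in 2D, except that CYP51A1 was at -0.02 in 3D on rescaling to a sum of 1000000. SQLE, the squalene epoxidase, was at 86.0 FPKM in 3D hypoxia, 65.9 in 3D normoxia, 89.1 in 2D hypoxia and 104.7 in 2D normoxia. MSMO1, the methyl oxidase, was at 76.9 FPKM in 3D hypoxia, 60.6 in 3D normoxia, 48.7 in 2D hypoxia and 63.3 in 2D normoxia. CYP51A1, a demethylase, had log2 ratios of 0.11 ± 0.05 in 3D and -0.36 ± 0.03 in 2D, and SC5D, a desaturase, had 0.28 ± 0.12 and -0.04 ± 0.08. Their summed level was 239.4 FPKM in 3D hypoxia, 196.3 in 3D normoxia, 208.5 in 2D hypoxia and 257.0 in 2D normoxia.

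TM7SF2 and LBR encode enzymes with the same sterol reductase activity, and LBR is also a protein of the inner nuclear membrane. TM7SF2 was at 20.1 FPKM in 3D hypoxia, 30.2 in 3D normoxia, 11.5 in 2D hypoxia and 22.0 in 2D normoxia. LBR was at 24.5 FPKM in 3D hypoxia, 30.7 in 3D normoxia, 38.6 in 2D hypoxia and 40.9 in 2D normoxia. The ratio of LBR to TM7SF2 was therefore 1.22 in 3D hypoxia and 1.02 in 3D normoxia, and 3.37 in 2D hypoxia and 1.86 in 2D normoxia. TM7SF2 was lower with hypoxia in each culture (log2 ratio -0.57 ± 0.09 in 3D, -0.89 ± 0.07 in 2D). In 3D over 2D, TM7SF2 stood at 0.76 ± 0.09 in hypoxia and 0.44 ± 0.07 in normoxia, and LBR at -0.64 ± 0.05 and -0.40 ± 0.04.

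**Figure D3:**
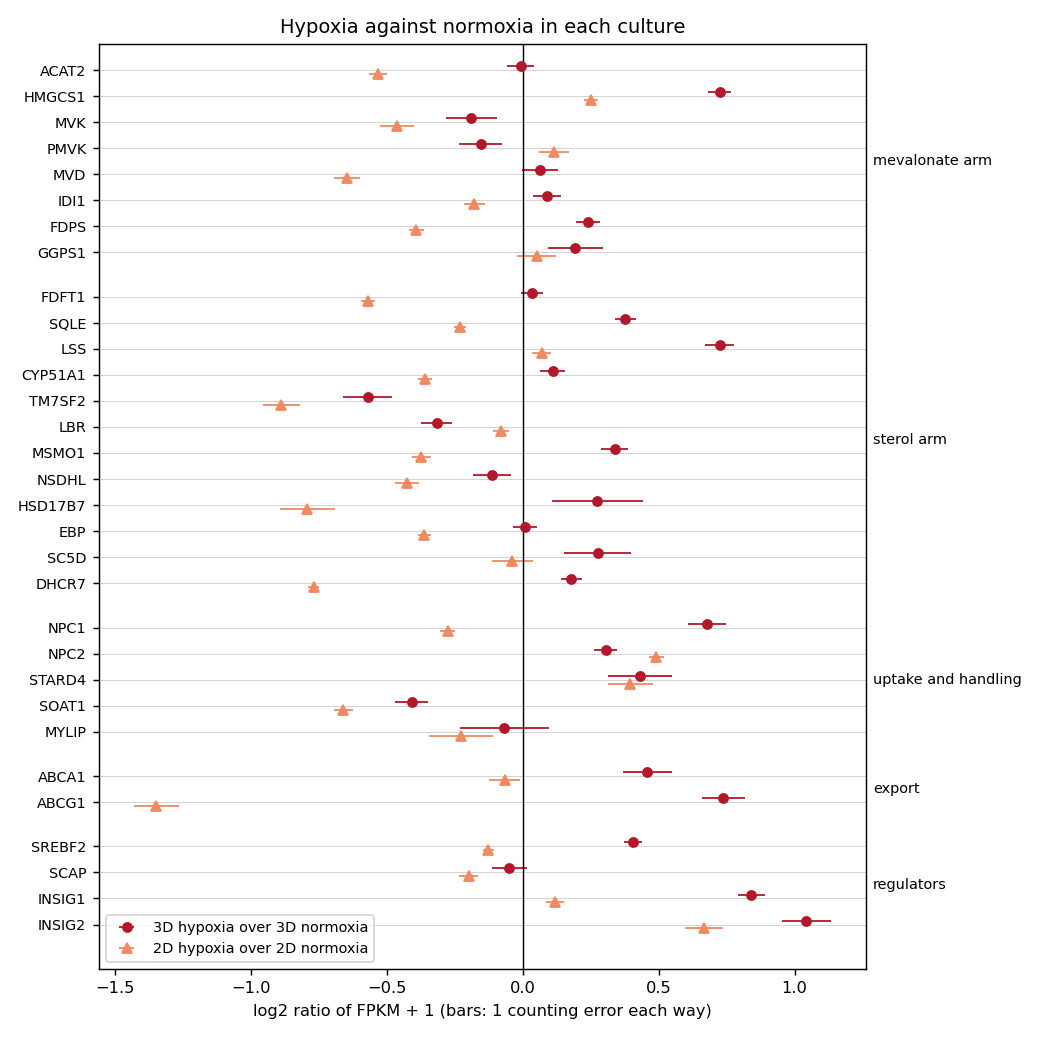
Log2 ratio of hypoxia to normoxia for each gene in 3D (circles) and in 2D (triangles), on FPKM + 1, with error bars of 1 counting error each way. In the sterol arm, 11 of 12 triangles lie left of 0 (50.3% of all genes in 2D) while 9 of 12 circles lie right of it (47.7% in 3D).

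Of the genes for uptake and handling, NPC1 varied most. NPC1, the membrane protein that passes cholesterol out of lysosomes, was at 15.8 FPKM in 3D hypoxia, 9.51 in 3D normoxia, 27.0 in 2D hypoxia and 32.9 in 2D normoxia. Both plastic libraries were above both Matrigel libraries, and hypoxia went with more NPC1 in 3D (log2 ratio 0.68 ± 0.07) and less in 2D (-0.28 ± 0.03). Its soluble partner NPC2 did not share this: it was at 220.8 FPKM in 3D hypoxia, 178.4 in 3D normoxia, 204.9 in 2D hypoxia and 145.4 in 2D normoxia. NPC2 was thus higher with hypoxia in each culture, and the ratio of NPC2 to NPC1 was 13.9 in 3D hypoxia and 18.8 in 3D normoxia, and 7.59 in 2D hypoxia and 4.42 in 2D normoxia.

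STARD4, a cytosolic sterol carrier, had nearly equal responses in the cultures, 0.43 ± 0.12 in 3D and 0.40 ± 0.08 in 2D, at 18.04 FPKM in 3D hypoxia, 13.1 in 3D normoxia, 14.2 in 2D hypoxia and 10.5 in 2D normoxia. SOAT1, which esterifies cholesterol for storage, went the other way in each culture, at 10.5 FPKM in 3D hypoxia and 14.2 in 3D normoxia, and at 11.0 in 2D hypoxia and 17.95 in 2D normoxia. MYLIP, a ligase that marks lipoprotein receptors for breakdown, was at 5.69 and 6.02 FPKM in 3D hypoxia and 3D normoxia, and at 3.25 and 3.97 FPKM in 2D hypoxia and 2D normoxia. Its oxygen ratios lay within 1.96 counting errors of 0 (-0.07 ± 0.16 in 3D, -0.23 ± 0.12 in 2D).

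The export gene ABCG1 showed the widest spread of all members (10.3-fold), while ABCA1, the other export gene, spanned 2.29-fold. ABCG1, a transporter that loads cholesterol onto lipoprotein particles, was at 22.3 FPKM in 3D hypoxia, 13.0 in 3D normoxia, 2.17 in 2D hypoxia and 7.06 in 2D normoxia. Hypoxia thus went with more ABCG1 in 3D (log2 ratio 0.74 ± 0.08) and less in 2D (-1.35 ± 0.08), where it was the only member at least 2-fold lower (1.59% of all genes) and 0 members were at least 2-fold higher (2.01%). The 3D hypoxia level was 10.3-fold that of 2D hypoxia. Its difference of responses, 2.08 ± 0.11, ranked 35 from the top among 12663 genes. ABCA1, the partner that loads newly formed particles, was low throughout, at 1.23 FPKM in 3D hypoxia, 0.624 in 3D normoxia, 1.32 in 2D hypoxia and 1.43 in 2D normoxia. It stood apart in 3D normoxia only, and the ratio of ABCG1 to ABCA1 was 18.1 and 20.8 in 3D hypoxia and 3D normoxia, against 1.64 and 4.93 in 2D hypoxia and 2D normoxia.

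The regulators had a median response of 0.62 in 3D and of -0.0036 in 2D. INSIG2, which holds SCAP in the endoplasmic reticulum, was at 23.7 FPKM in 3D hypoxia, 11.0 in 3D normoxia, 12.4 in 2D hypoxia and 7.45 in 2D normoxia. It was the only member at least 2-fold higher with hypoxia in 3D (log2 ratio 1.04 ± 0.09), where 2.91% of all genes were, and it ranked 329 from the top among 12663 genes there. Its ratio in 2D was 0.67 ± 0.07, and on rescaling to a sum of 1000000 the 3D ratio was 0.94, under the 2-fold mark. No member was at least 2-fold lower with hypoxia in 3D (0 of 31, where 1.11% of all genes were). INSIG1, its paralogue and itself a target of SREBP, was at 67.6 FPKM in 3D hypoxia, 37.3 in 3D normoxia, 42.3 in 2D hypoxia and 38.9 in 2D normoxia.

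INSIG1 was therefore high in 3D hypoxia alone (0.84 ± 0.05 in 3D, 0.12 ± 0.03 in 2D), while INSIG2 was higher with hypoxia in each culture. The ratio of INSIG2 to INSIG1 was 0.35 in 3D hypoxia and 0.294 in 3D normoxia, and 0.293 in 2D hypoxia and 0.191 in 2D normoxia. SREBF2, which encodes SREBP-2, was at 63.5 FPKM in 3D hypoxia, 47.7 in 3D normoxia, 56.2 in 2D hypoxia and 61.4 in 2D normoxia, with 3D normoxia the low library. SCAP, the sterol sensor that escorts it, was at 17.9 and 18.5 FPKM in 3D hypoxia and 3D normoxia, and at 22.3 and 25.7 FPKM in 2D hypoxia and 2D normoxia, with oxygen ratios of -0.05 ± 0.06 in 3D, within 1.96 counting errors of 0, and of -0.20 ± 0.03 in 2D, beyond them. Transcript levels do not measure SREBP cleavage.

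**Figure D4:**
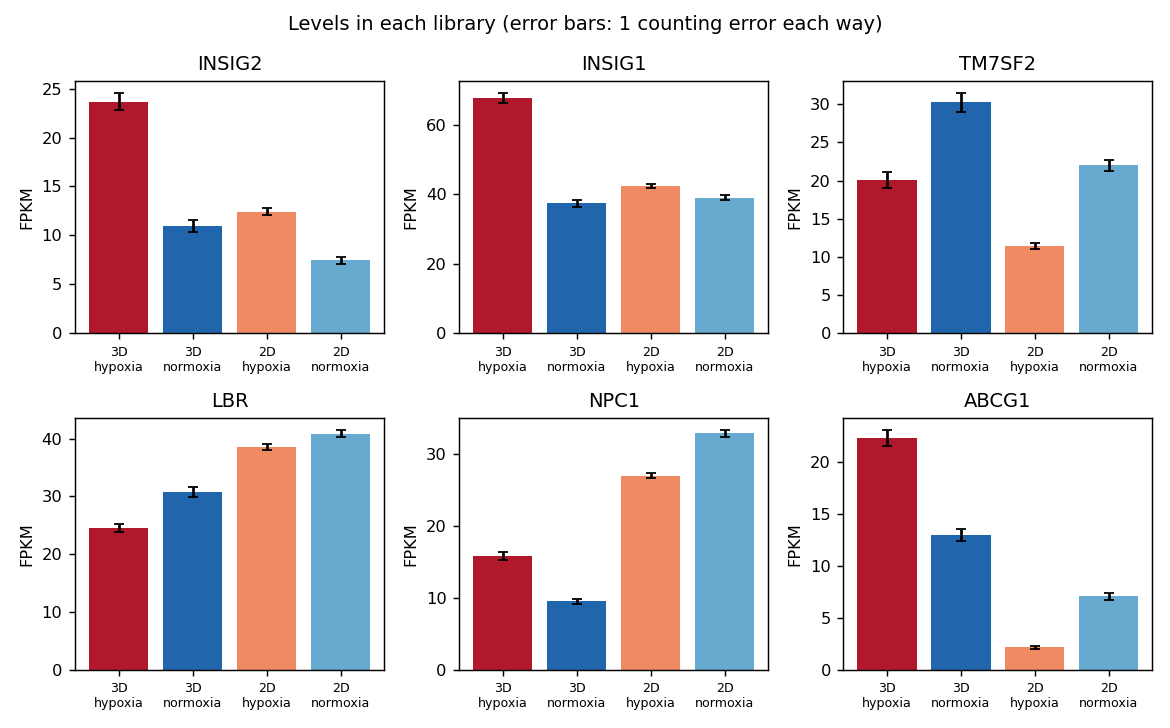
FPKM of INSIG2, INSIG1, TM7SF2, LBR, NPC1 and ABCG1 in each of the 4 libraries (coloured bars from 0, error bars 1 counting error each way). INSIG1 is high in 3D hypoxia only, at 67.6 against 37.3 to 42.3 FPKM, while ABCG1 runs between 22.3 FPKM in 3D hypoxia and 2.17 FPKM in 2D hypoxia.

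What the members share in sequence was looked up in the 250 bases before each annotated start, from RefSeq on GRCh38.p14, where 27 of the 31 genes had an entry. ACAT2, FDFT1, SQLE and ABCG1 had none and were not searched. The NF-Y box CCAAT, a site for a factor that works beside SREBP on sterol promoters, was found on either strand in 20 of 27 members (74.1%), in 41.4% of the 9423 tested genes with an entry and in 32.01% of all 35116 promoters. Those 20 included 8 genes of the sterol arm and 6 of the mevalonate arm. The SREBP element TCACNCCAC was found in SREBF2 alone of the 27 (3.7% of members, 1.16% of tested genes, 0.883% of all promoters). It shares no letters with the NF-Y or HIF motifs there. It was searched without mismatches at its fixed letters and in 250 bases only. A missing match therefore does not show that a promoter lacks a sterol element. The HIF core ACGTG was in 7 members (25.9%, against 29.3% of tested genes and 18.5% of all promoters) and the GC box GGGCGG in 25 (92.6%, against 75.2% and 42.6%). The direct repeat bound by LXR, searched without mismatches, was in 0 of 27 members, 0 of 9423 tested genes and 0.0142% of all promoters. So strict a search cannot set members apart from other genes. All motifs were sought on both strands. A match is a run of letters and not a shown binding site.

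Promoters of 4 members are printed because they hold the SREBP element (SREBF2), a pair of NF-Y boxes in a mevalonate gene that stood higher in 3D hypoxia (HMGCS1), or contrast the INSIG paralogues, of which INSIG1 holds an NF-Y box and INSIG2 does not. They read 5′ to 3′ along the gene and end 1 base before the start, and capitals mark matches to the SREBP element, the NF-Y box (CCAAT or its reverse ATTGG) and the HIF core (ACGTG or its reverse CACGT).
SREBF2, chr22:41832855-41833104, plus strand: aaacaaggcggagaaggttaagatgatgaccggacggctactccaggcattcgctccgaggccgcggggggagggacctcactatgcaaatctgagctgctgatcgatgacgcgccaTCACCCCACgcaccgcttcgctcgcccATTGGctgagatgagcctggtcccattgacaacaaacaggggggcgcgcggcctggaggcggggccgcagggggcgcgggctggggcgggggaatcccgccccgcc
HMGCS1, chr5:43313413-43313662, minus strand: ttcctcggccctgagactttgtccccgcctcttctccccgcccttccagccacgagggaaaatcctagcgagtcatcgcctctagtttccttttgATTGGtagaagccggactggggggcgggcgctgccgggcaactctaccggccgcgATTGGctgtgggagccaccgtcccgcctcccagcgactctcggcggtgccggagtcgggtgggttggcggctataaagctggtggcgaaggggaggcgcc
INSIG1, chr7:155297628-155297877, plus strand: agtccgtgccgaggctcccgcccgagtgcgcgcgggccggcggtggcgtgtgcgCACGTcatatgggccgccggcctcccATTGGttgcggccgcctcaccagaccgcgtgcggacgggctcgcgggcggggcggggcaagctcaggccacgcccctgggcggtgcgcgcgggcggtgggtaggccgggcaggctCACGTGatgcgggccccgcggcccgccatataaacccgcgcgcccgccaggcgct
INSIG2, chr2:118088221-118088470, plus strand: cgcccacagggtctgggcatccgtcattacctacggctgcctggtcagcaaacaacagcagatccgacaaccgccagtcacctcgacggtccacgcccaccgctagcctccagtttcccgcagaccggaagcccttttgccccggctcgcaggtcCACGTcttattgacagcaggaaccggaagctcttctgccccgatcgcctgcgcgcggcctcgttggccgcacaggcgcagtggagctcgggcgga

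In SREBF2 the SREBP element lies 133 to 125 bases before the start and the NF-Y box 106 to 102 bases before it. HMGCS1 has NF-Y boxes at 155 to 151 and 100 to 96 bases. Some members hold more of these boxes. MVK and NSDHL hold 5 each, with 3D log2 ratios of hypoxia to normoxia of -0.19 and -0.11, and MSMO1 holds 4, with 0.34. A link between NF-Y boxes and the response was not tested. INSIG1 has its NF-Y box at 170 to 166 bases, and its HIF core letters at 196 to 192 bases and, read on both strands of one palindrome, at 55 to 50 bases. INSIG2 has the HIF core letters once, 95 to 91 bases before the start.

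The average effect of hypoxia over both cultures could be given an error. It was fitted with limma across all genes, with culture as an additive term and 1 residual degree of freedom. That degree of freedom is the difference of the hypoxia responses itself, so the error grew with it (SE 0.45 for ABCG1, 0.11 for STARD4). Members with unlike responses in 3D and 2D therefore passed less readily. INSIG2 rose, with a mean log2 effect of 0.85 ± 0.14 (SE from limma, adjusted p = 0.0347), and TM7SF2 fell, with one of -0.73 ± 0.13 (limma, adjusted p = 0.0433), each pointing the same way in both cultures. These were 2 of 31 members (6.45%), where 4.84% of all genes passed (3.2% up and 1.64% down), a share near the background. SOAT1 (-0.53 ± 0.12, adjusted p = 0.0732), STARD4 (0.41 ± 0.11, 0.0973), HMGCS1 (0.49 ± 0.15, 0.126), NPC2 (0.40 ± 0.13, 0.138), MVK (-0.33 ± 0.13, 0.183) and INSIG1 (0.48 ± 0.19, 0.191) had the same sign in both cultures and did not pass in limma. The calls of INSIG2 and TM7SF2 were both lost with a pseudocount of 5, without a filter on low values, after median centring, without the variance trend and without the culture term (highest adjusted p 0.867 and 0.896).

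The remaining comparisons asked how the members differed between Matrigel and plastic, and they use the same 4 libraries as those above. In hypoxia, 23 of 31 members were higher in 3D than in 2D, where 47% of all genes were, and all 8 genes of the mevalonate arm were (median log2 ratio 0.39, and 0.20 on rescaling to a sum of 1000000), while the sterol arm had a median of 0.12 that turned to -0.07 on that rescaling. In normoxia, 20 of 31 members were lower in 3D than in 2D, where 52.9% of all genes were. The sterol arm was at -0.29 and the mevalonate arm at 0.09, which turned to -0.11 on that rescaling. ABCG1 in hypoxia (2.88 ± 0.08) was the only member at least 2-fold higher in 3D, where 3.8% of all genes were, and 0 were at least 2-fold lower (3.02% of all genes). NPC1 in normoxia (-1.69 ± 0.06) was the only one at least 2-fold lower, where 2.49% of all genes were, and 0 were at least 2-fold higher (1.98%). DHCR7 lay just short of that mark in normoxia, at -0.995 ± 0.031. These calls rest on FPKM + 1. On plain FPKM, DHCR7 was 2.005-fold and ABCA1 2.29-fold lower in 3D than in 2D in normoxia. The 3 known LXR targets here, ABCA1, ABCG1 and MYLIP, had a median of 0.65 in hypoxia and 0.50 in normoxia, with ABCA1 below 0 in each (-0.06 and -0.58).

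As an average over both oxygen levels, limma called 8 of 31 members (25.8%), where 22% of all genes passed (10.4% up and 11.6% down), again near the background. Higher in 3D were ABCG1 (1.83 ± 0.45, limma adjusted p = 0.041), INSIG2 (0.69 ± 0.14, 0.0251), TM7SF2 (0.60 ± 0.13, 0.0305), MYLIP (0.58 ± 0.13, 0.0329), IDI1 (0.54 ± 0.13, 0.0383) and GGPS1 (0.45 ± 0.12, 0.045). NPC1 fell by 1.21 ± 0.23 on the log2 scale (limma adjusted p = 0.0228) and LBR by 0.52 ± 0.12 (0.0377). All 8 had the same sign in hypoxia and in normoxia. On rescaling to a sum of 1000000, which moved the median of all genes by -0.18 in these comparisons, 2 members were called higher and 4 lower. Of all 12663 genes, 767 were called higher and 3132 lower there. The calls of NPC1 and INSIG2 held in 7 of 9 alternatives and were lost without the filter on low values and without the oxygen term, which also ended the other 6. IDI1, GGPS1, LBR and ABCG1 further lost theirs with a pseudocount of 5 and without trend. On rescaling IDI1, GGPS1, TM7SF2 and MYLIP were lost, and after centring LBR and ABCG1.

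**Figure D5:**
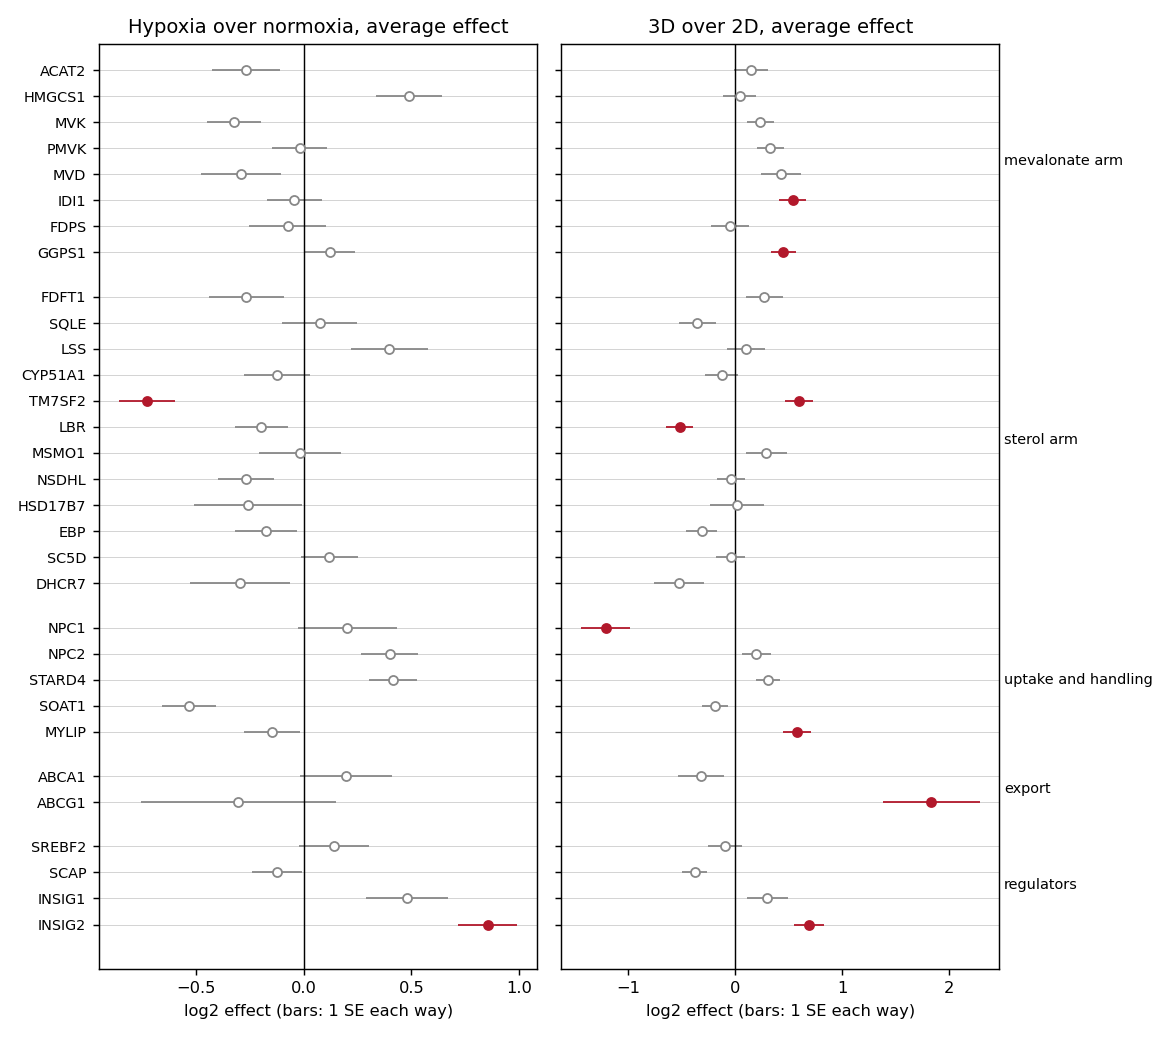
Average log2 effect of hypoxia over normoxia (left) and of 3D over 2D (right) for each gene, with error bars of 1 SE each way from limma, where filled red points passed an adjusted p of 0.05. On the left INSIG2 (0.85) and TM7SF2 (-0.73) are filled, and on the right 8 genes are, led by ABCG1 (1.83) and NPC1 (-1.21).

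Other genes of the pathway were grouped in 5 lists. Over all genes, 4.84% passed limma for hypoxia and 22% for culture. Counts in lists this small do not set them apart from those shares. Of 12 genes in the side branches of the mevalonate route, which make dolichol, ubiquinone and prenylated proteins, 0 passed limma for hypoxia (1 had an unadjusted p under 0.05) and 1 for culture, the prenyl protease RCE1 (-0.52 ± 0.11, limma adjusted p = 0.0311). Their median difference of responses was -0.13, opposite in sign to the 0.37 of the mevalonate arm. Of 7 genes that process SREBP or turn over its control proteins, 0 passed for hypoxia (2 had an unadjusted p under 0.05), while ERLIN1 fell in 3D (-0.62 ± 0.13, limma adjusted p = 0.0261).

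Among 12 measured genes of intracellular sterol transport, CAV1, the caveolar scaffold, rose with hypoxia by 1.78 ± 0.13 (limma adjusted p = 0.00661) and fell in 3D by 1.07 ± 0.13 on the log2 scale (0.0106). It was at 108.2 FPKM in 3D hypoxia, 27.9 in 3D normoxia, 207.2 in 2D hypoxia and 65.6 in 2D normoxia. TMEM97 and the sterol carrier SCP2 rose in 3D (both 0.85, limma adjusted p = 0.0183 and 0.0162). Of 5 lipoprotein receptor genes, VLDLR rose with hypoxia (1.23 ± 0.18, 0.0286) and so did LRP1 (0.89 ± 0.14, 0.0341), and VLDLR and SORT1 fell in 3D (-0.78, 0.0325 and -0.53, 0.0297). VLDLR was at 17.96 FPKM in 3D hypoxia and 5.47 in 3D normoxia, and at 25.1 in 2D hypoxia and 12.9 in 2D normoxia. Of 6 measured LXR and oxysterol genes, NR1H3, which encodes an LXR, fell with hypoxia by 0.67 ± 0.12 on the log2 scale (0.0414) and rose in 3D by 0.69 ± 0.12 (0.0183). NR1H3 was at 7.81 FPKM in 3D hypoxia and 12.6 in 3D normoxia, and at 4.27 in 2D hypoxia and 7.67 in 2D normoxia.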

How the data were processed

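Each of the 4 libraries has a table of FPKM values deposited by the authors, per the file headers, with 26255 gene symbols. Cuffdiff 2.2.1, TopHat2 2.1.1, SAMtools 0.1.18, Bowtie2 2.2.8 and the build hg19 are named, per the submitters' processing notes. Per the labels' protocols libraries were made with a stranded mRNA kit. The annotation, the strand setting and how libraries were scaled were not given in the sources used here. Values became log2(FPKM + 1), and genes averaging at least 1 FPKM (12663) were kept. Mean effects of oxygen and culture were fitted with limma 3.58.1 in R 4.3.3 (trend, additive terms, residual df 1, prior df 4.67), adjusting by Benjamini-Hochberg over all genes at 0.05, and the script was tested on simulated data. Nothing says that the libraries came from separate cultures. The p-values weigh each average effect against the gene's own difference of hypoxia responses, moderated over all genes. They do not measure a spread between replicate cultures. Single pairs of libraries were described by size (at least 2-fold) with no test.

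Counting errors used fragment numbers inferred from the step that 1 fragment makes in low FPKM values, and lengths of RefSeq-matched transcripts in GENCODE 29, an annotation of another build. Python 3.11.15 ran the other steps. The members and lists were chosen with earlier results of these data known, and these 31 genes are not the whole pathway. All members were named, and other pathway genes were named where limma called them or a pair of libraries differed by at least 2-fold, up to 4 per list, except 1 that is not reported here.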

Additional observations from a re-analysis of the deposited data

Results flagged for a closer look

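For 9 members hypoxia and normoxia parted in opposite directions in the cultures, each by more than 1.96 counting errors. The share of all genes that meet this rule was not counted, so the 9 are not set against a background. With 1 library per group the difference was not tested. The response in 3D minus that in 2D was 2.08 log2 units for ABCG1, 0.955 for NPC1, 0.947 for DHCR7, 0.71 for MSMO1, 0.631 for FDPS, 0.609 for SQLE, 0.533 for SREBF2 and 0.47 for CYP51A1, all higher with hypoxia in 3D and lower with hypoxia in 2D. PMVK was the exception, at -0.271, lower with hypoxia in 3D and higher in 2D. No group held enough libraries for a check of single libraries against the rest.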

How the results depend on the processing

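The limma calls were sensitive to the settings. Over all genes the hypoxia calls, 405 up and 208 down, were 87 and 39 with a pseudocount of 5, 0 and 0 without the filter on low values (2812 genes at an unadjusted p under 0.05), 507 and 313 with the filter at 5 FPKM, 303 and 475 on rescaling to a sum of 1000000, 169 and 79 after median centring, 254 and 112 without trend, 3 and 0 without the culture term (733 at an unadjusted p under 0.05), and 755 and 531 without small RNA genes and genes at 0. Of the members, 1 up and 1 down in hypoxia, 0 and 0 passed with a pseudocount of 5, without the filter, after centring, without trend and without the culture term, where 7, 4, 7, 6 and 1 had an unadjusted p under 0.05, and 2 were down with the filter at 5 FPKM, on rescaling and without small RNA genes, SOAT1 being the addition. For culture, 1313 up and 1472 down over all genes became 0 and 0 without the filter (4518 at an unadjusted p under 0.05), 767 and 3132 on rescaling, and 1 and 3 without the oxygen term. Members, 6 up and 2 down, were 3 and 1 with a pseudocount of 5 or without trend, 0 and 0 without the filter or the oxygen term, 2 and 4 on rescaling, and 1 was down after centring.

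Some average effects near 0 changed sign on rescaling to a sum of 1000000: GGPS1 (-0.00155) and SQLE (-0.059) for hypoxia, and ACAT2 (-0.047), HMGCS1 (-0.154), LSS (-0.0957) and HSD17B7 (-0.17) for culture. After centring NSDHL was at 0.0028 for culture. None of these 7 passed limma under the main settings. Between pairs of libraries, the 1 member at least 2-fold higher with hypoxia in 3D was lost with a pseudocount of 5 and on rescaling (0 each), and the 1 at least 2-fold lower in 2D was 0 with a pseudocount of 5 and 2 on rescaling, where 4 members in place of 8 stood above 0. Over all genes that rescaling left 34.7% above 0 in 2D, against 49.6% without it, and 341 at least 2-fold lower, against 201. For 3D against 2D in normoxia the 1 member at least 2-fold lower became 3 with a pseudocount of 0.1 and 2 on rescaling, and the 2 members with a difference of responses of at least 1 became 1 with a pseudocount of 5. Counts over all genes at least 2-fold apart ran from 51 to 731 over the alternatives, from main counts of 109 to 481. The cause was not tested. No paired analysis was possible because the labels give no replicate numbers and each group has 1 library. The precision of fragment counting is limited by the depth of the 3D libraries, 11500000 and 11800000 fragments, against 38900000 and 24400000 in 2D. Error between replicates could not be estimated at any depth with 1 library per group.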
